A study of Mus musculus with 2 samples.

Results

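The 10 genes described here belong to nutrient and stress sensing upstream of mTORC1, the kinase complex that drives growth. All but Rheb restrain mTORC1, and the 10 together are called brake genes below. They were chosen by name, as the sestrins Sesn1, Sesn2 and Sesn3, the TSC activator Ddit4, the TSC subunits Tsc1 and Tsc2, the TSC target Rheb, and the GATOR1 subunits Depdc5, Nprl2 and Nprl3. All 10 were found among the 16386 genes of the tables. The RNA came from invariant natural killer T (iNKT) cells at stage 1, an early step of a thymic T cell lineage, sorted from C57BL/6 mice at 5 weeks of age. The groups were Uhrf1 KO and wild type (WT), with 1 library each. Uhrf1 encodes the protein that directs the methyltransferase Dnmt1 to newly copied DNA. The sources used here do not give the deletion strategy, the sort gate or the number of mice pooled per library.

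Growth signals reach mTORC1 by separate routes. The TSC complex switches off Rheb, the small GTPase that activates mTORC1 at the lysosome, so Rheb is the target of a brake and not itself a brake. GATOR1 switches off the Rag GTPases that bring mTORC1 to the lysosome when amino acids are short, and its activity is held back by GATOR2. Sestrins bind and inhibit GATOR2, Sesn2 acting also as a leucine sensor, and Ddit4 (REDD1) favours an active TSC complex under hypoxia and other stress. Sesn1 and Sesn2 are known targets of p53, Sesn1 and Sesn3 of FOXO factors, and Sesn2 and Ddit4 of ATF4. In T cells, loss of Tsc1 is known to break quiescence, and iNKT cell development depends on mTORC1.

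Reads assigned to genes numbered 12189848 in the Uhrf1 KO library and 26005823 in the WT library. Uhrf1 itself had an FPKM (fragments per length of transcript and size of library) of 0.626 in the KO, on 25 reads, against 35.3 in WT, on 3032 reads. Because each genotype was sequenced once, differences below could not be checked on replicates and carry no p-value. T cell genes were abundant in both libraries: Cd3d had an FPKM of 1110 in the KO and 951 in WT. Zbtb16, which encodes the iNKT lineage factor PLZF, had 41.9 in the KO and 114 in WT. A gene was counted as measured at a mean FPKM of at least 1. It is said to have risen or fallen where log2 of (KO FPKM + 1) over (WT FPKM + 1) was 1 or more, or -1 or less; this size rule understates changes of low genes. Folds are ratios of the scaled counts, with 95% exact (Clopper-Pearson) intervals that cover counting error only, as PCR copies were not marked by molecular identifiers. For the 9 genes with reads in both libraries, folds by FPKM and by scaled count differed by at most 1.13 times.

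The mTORC1 brake genes changed in both directions in the Uhrf1 KO. Of 9 measured, 3 rose (Sesn1, Sesn2 and Nprl2), beside 21.3% of all 9955 measured genes. As many, 3, fell (Tsc2, Depdc5 and Nprl3), beside 23.6% of all measured genes. The remaining 3 (Sesn3, Ddit4 and Rheb) did neither, and Tsc1 was below the limit of measurement. The median log2 ratio of the 9 genes was 0.0020, against -0.0048 for all measured genes. The share past the size rule in either direction was 44.9% over all measured genes, so a change of this size was frequent between these libraries. At a mean FPKM of 1 to 5, where 61.1% of genes passed, 2 of 2 members did (Sesn2 and Depdc5). At 5 to 25, where 47.3% passed, 4 of 5 did (Sesn1, Tsc2, Nprl2 and Nprl3, but not Sesn3). At 25 to 100, where 32.3% passed, 0 of 2 did (Ddit4 and Rheb). In sorted bulk cells, fewer cells of a type and less RNA per cell cannot be told apart.

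**Figure D1:**
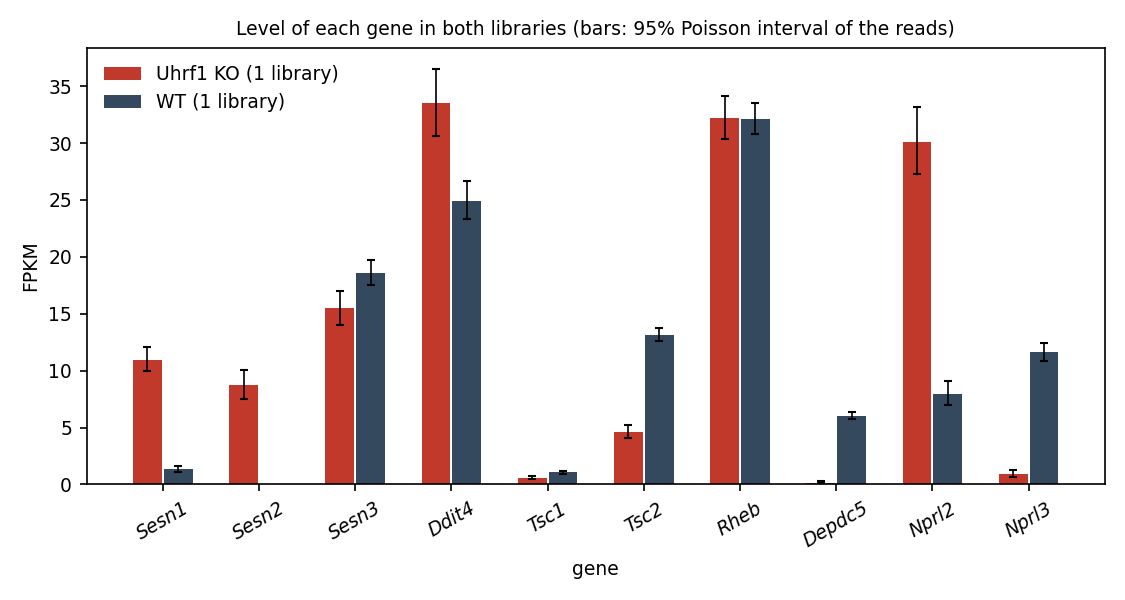
FPKM of each of the 10 genes in the Uhrf1 KO library (left bar of each pair) and the WT library (right bar), with 95% Poisson intervals of the reads as error bars. Sesn1, Sesn2 and Nprl2 stood above their WT bars, Tsc2, Depdc5 and Nprl3 below, and Rheb was level at 32.2 in the KO and 32.1 in WT.

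**Figure D2:**
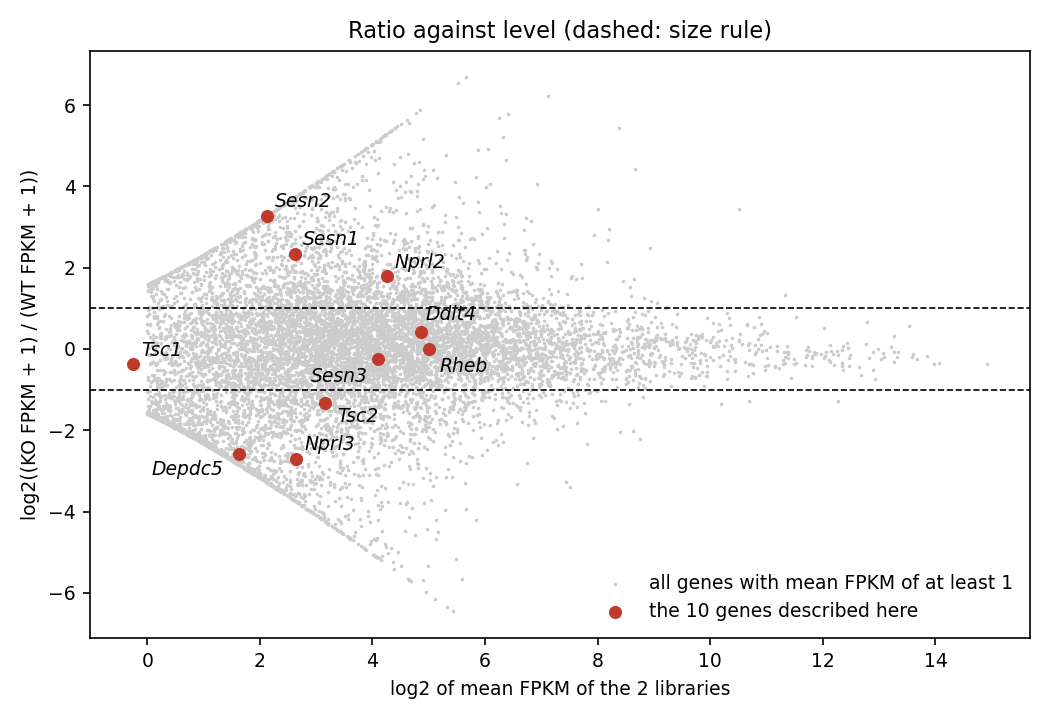
Log2 ratio of KO over WT (FPKM + 1) against the log2 of the mean FPKM for all 9955 measured genes (grey) and the 10 genes (red). Dashed lines mark the size rule of 1. Tsc1 lies left of the grey points because its mean FPKM of 0.840 was below the limit.

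The sestrins gave the most prominent rises. Sesn1 (Entrez gene 140742, chromosome 10, 41810574 to 41908436 in mm10) had an FPKM of 11.0 in the KO, on 443 reads, and 1.36 in WT, on 115 reads. Its scaled count was 8.22-fold higher in the KO (interval 6.68 to 10.2). Sesn2 (Entrez gene 230784, chromosome 4, 132492804 to 132510456) had 8.71 in the KO, on 179 reads, and was not detected in WT, where 0 reads allow an FPKM of up to 0.0684. Taking a floor of 3 reads in the WT library, Sesn2 was at least 127-fold higher in the KO. Among the 4028 genes with 0 WT reads, 121 (3%) reached the KO level of Sesn2 or more, Sesn2 included. Sesn3 (Entrez gene 75747, chromosome 9, 14276301 to 14326134), the most abundant sestrin in both libraries, had 15.5 in the KO and 18.6 in WT. That difference, 1.20-fold lower in the KO (interval 1.07 to 1.34), did not pass the size rule.

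Both the total and the make-up of the sestrin pool differed between the libraries. The summed FPKM of the 3 sestrins was 35.2 in the KO and 19.97 in WT. Sesn3 made up 44.0% of that sum in the KO and 93.2% in WT. Sesn1 held 31.2% in the KO and 6.80% in WT, and Sesn2 held 24.8% in the KO and none in WT.

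**Figure D3:**
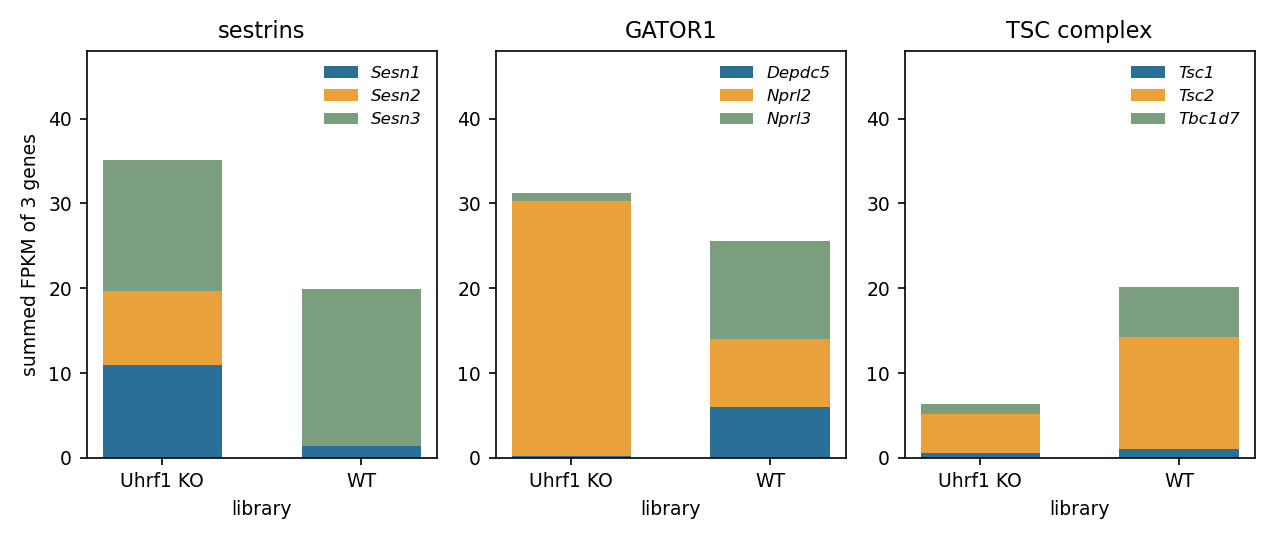
Summed FPKM of the sestrins (left), the GATOR1 subunits (middle) and the TSC complex subunits (right), stacked by gene, in the Uhrf1 KO and WT libraries. The sestrin sum held 3 sizeable parts in the KO, while Nprl2 made up nearly all of the GATOR1 sum in the KO and the TSC sum was 6.34 in the KO against 20.1 in WT.

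The sequence before the start of each sestrin gene is given here because Uhrf1 acts on methylated CpG and these paralogs differed in the KO. The bases come from the RefSeq promoter windows of GRCm38.p6 (mm10). Each line runs 5′ to 3′ along the gene's own strand, leaves out annotated exons, and has every CpG in capitals. For Sesn1 the line belongs to its internal start, since the window before the other start lies in an annotated exon.
Sesn1, chr10:41887189-41887438, forward strand: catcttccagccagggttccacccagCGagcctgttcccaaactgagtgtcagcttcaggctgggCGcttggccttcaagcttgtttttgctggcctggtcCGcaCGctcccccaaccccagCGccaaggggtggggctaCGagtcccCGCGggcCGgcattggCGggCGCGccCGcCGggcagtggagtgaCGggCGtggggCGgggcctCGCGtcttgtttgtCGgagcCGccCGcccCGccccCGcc
Sesn2, chr4:132510502-132510706, reverse strand: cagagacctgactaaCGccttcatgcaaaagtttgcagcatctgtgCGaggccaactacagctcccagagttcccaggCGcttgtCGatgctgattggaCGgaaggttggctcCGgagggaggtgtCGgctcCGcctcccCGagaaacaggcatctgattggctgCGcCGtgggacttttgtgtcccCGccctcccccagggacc
Sesn3, chr9:14276051-14276300, forward strand: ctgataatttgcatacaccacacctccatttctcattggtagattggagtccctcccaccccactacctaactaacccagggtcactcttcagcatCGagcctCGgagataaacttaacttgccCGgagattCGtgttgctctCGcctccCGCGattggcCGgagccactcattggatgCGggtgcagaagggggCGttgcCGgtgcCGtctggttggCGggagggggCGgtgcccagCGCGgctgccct
In the full windows of 250 bases, the internal start of Sesn1 had 24 CpG, the upstream start of Sesn1 23, Sesn2 18 and Sesn3 16. All of them lay above the median of 6 CpG over 32851 RefSeq windows of that length. Methylation was not measured, so these counts describe the sequence only.

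The subunits of GATOR1 differed in opposite directions: Nprl2 rose, and Nprl3 and Depdc5 fell. Nprl2 (Entrez gene 56032, chromosome 9, 107542177 to 107545706) had an FPKM of 30.1 in the KO, on 405 reads, and 7.98 in WT, on 242 reads, which is 3.57-fold higher in the KO (interval 3.04 to 4.2). Nprl3 (Entrez gene 17168, chromosome 11, 32231963 to 32267707), which forms a dimer with Nprl2, had 0.945 in the KO, on 37 reads, and 11.6 in WT, on 857 reads. It was 10.9-fold lower in the KO (interval 7.81 to 15.5). Depdc5 (Entrez gene 277854, chromosome 5, 32863646 to 32994233), the subunit through which GATOR1 contacts the Rags, had 0.171 in the KO, on 19 reads, and 6.04 in WT, on 1457 reads. Its scaled count was 35.9-fold lower in the KO (interval 22.9 to 59.9). For comparison, among 1244 genes with a WT level within 1.3 times that of Depdc5, 156 (12.5%) had a KO level at or below its own. For Nprl3 the like count was 148 of 1284 genes (11.5%). Each of these counts includes the gene itself.

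In WT the 3 GATOR1 subunits lay within 1.92 times of each other in FPKM, a unit that corrects for length. In the KO the highest, Nprl2, stood 177 times above the lowest, Depdc5. Their summed FPKM was 31.2 in the KO and 25.6 in WT, and Nprl2 made up 96.4% of the sum in the KO and 31.1% in WT.

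The bases before the starts of the GATOR1 genes that fell, Depdc5 and Nprl3, are shown for the same reason and in the same way.
Depdc5, chr5:32863471-32863645, forward strand: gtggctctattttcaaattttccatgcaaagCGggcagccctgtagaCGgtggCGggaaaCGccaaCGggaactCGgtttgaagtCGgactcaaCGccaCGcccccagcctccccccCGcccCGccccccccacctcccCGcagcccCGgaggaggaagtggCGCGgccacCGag
Nprl3, chr11:32267708-32267957, reverse strand: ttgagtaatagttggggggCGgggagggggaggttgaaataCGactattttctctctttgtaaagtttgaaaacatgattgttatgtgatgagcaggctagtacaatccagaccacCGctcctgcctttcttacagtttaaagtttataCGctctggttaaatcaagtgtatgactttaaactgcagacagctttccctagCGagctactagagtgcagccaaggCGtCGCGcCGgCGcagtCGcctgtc
The full window of Depdc5 held 24 CpG and that of Nprl3 held 11, the fewest among the 11 windows of these genes. The window of Nprl2 held 15 CpG and overlapped an exon of the divergent gene Cyb561d2, so it is not printed. The genes that rose had 15 to 24 CpG and those that fell 11 to 24, so the ranges overlapped. Rheb, whose level did not pass the size rule, had the most, 37.

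All 3 core subunits of the TSC complex had lower values in the KO, and Tsc2 and Tbc1d7 fell. Tsc2 (Entrez gene 22084, chromosome 17, 24595816 to 24632676), the subunit with the GTPase-activating domain for Rheb, had an FPKM of 4.61 in the KO and 13.2 in WT. It was 3.01-fold lower in the KO (interval 2.66 to 3.42). Its exons overlap those of Pkd1, and its KO count was not a whole number of reads (284.97), so reads of this locus may have been divided between genes. Pkd1 had only 13.03 reads in the KO and 37 in WT. Tsc1 (Entrez gene 64930, chromosome 2, 28640993 to 28691172), the subunit that stabilises Tsc2, had 0.609 in the KO, on 60 reads, and 1.07 in WT, on 234 reads. Its counts were 1.83-fold lower in the KO (interval 1.37 to 2.47), with a log2 ratio of -0.37. Tbc1d7, the other core subunit, had 1.12 in the KO, on 11 reads, and 5.88 in WT, on 161 reads, and fell (log2 ratio -1.70). Summed over these 3 subunits the FPKM was 6.34 in the KO and 20.1 in WT.

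The genes on either side of the TSC complex did not pass the size rule. Ddit4 (Entrez gene 74747, chromosome 10, 59949675 to 59951770) had an FPKM of 33.5 in the KO and 24.9 in WT, 1.29-fold higher in the KO (interval 1.16 to 1.44). Rheb (Entrez gene 19744, chromosome 5, 24802823 to 24842361) had 32.2 in the KO and 32.1 in WT, and its scaled count was 1.09-fold higher in the KO (interval 1.02 to 1.17).

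Ordered by FPKM, the KO ran from Ddit4 (33.5), Rheb (32.2) and Nprl2 (30.1) through Sesn3, Sesn1, Sesn2 and Tsc2 to Nprl3, Tsc1 and Depdc5 (0.171). Among neighbours in that order, the counting intervals of Ddit4 and Rheb, Rheb and Nprl2, Sesn1 and Sesn2, and Nprl3 and Tsc1 overlapped. Those of Ddit4 and Nprl2 overlapped as well. In WT the order was Rheb (32.1), Ddit4 (24.9), Sesn3, Tsc2, Nprl3, Nprl2, Depdc5, Sesn1, Tsc1 and Sesn2 (0), and of the neighbours with reads only Sesn1 and Tsc1 had overlapping intervals. The median level of the 10 genes was 9.84 in the KO and 9.79 in WT, and 7 of them reached an FPKM of 1 in the KO against 9 in WT.

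Letters of known regulator motifs were looked up in the 11 windows of 250 bases before the starts, on both strands and each motif on its own. A p53 half-site (named here without letters, as its consensus has alternatives) occurred before the internal start of Sesn1 and before Nprl2, and in 7.13% of all windows. The ATF4 letters TGATGNAA (3.45% of all windows) and the FOXO letters GTAAACA (3.17%) occurred in none of the 11. The E-box CACGTG occurred before Rheb, and in 6.02% of all windows. These matches describe the letters and are not binding sites.

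The rest of the pathway was followed in lists chosen by role. Each count below stands beside 21.3% risen and 23.6% fallen over all measured genes. Among other inhibitors of mTORC1, 2 of 5 measured genes rose and 1 fell (median log2 ratio -0.056). Both CASTOR genes, whose products bind GATOR2 and, for CASTOR1, sense arginine, rose. CASTOR2, listed as Gatsl2, had an FPKM of 6.88 in the KO and 0.673 in WT. CASTOR1, listed as Gatsl3, had 33.9 in the KO and 12.1 in WT. The third that changed was Tbc1d7. Deptor, a direct inhibitor of mTOR, was below the limit with 107 reads in the KO and 0 in WT, at a locus shared with Gm9920.

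GATOR2, which opposes GATOR1, and KICSTOR, which tethers GATOR1 to the lysosome, had 1 of 8 measured genes risen and 0 fallen (median -0.25), beside 21.3% risen and 23.6% fallen over all measured genes. The riser was Itfg2, a KICSTOR subunit, with 47.1 in the KO and 17.2 in WT. The GATOR2 subunits Wdr24 (11.0 in the KO and 19.7 in WT) and Mios (1.53 in the KO and 3.13 in WT) did not pass the rule. For AMPK, which activates TSC2 when energy is low, and its activators, 3 of 7 measured genes fell and 0 rose (median -0.26). Strada, the pseudokinase partner of the AMPK kinase Stk11, had 1.20 in the KO and 22.0 in WT. Stk11 had 29.1 in the KO and 89.4 in WT; it shares its locus in the files with 44 other genes and its WT count was not whole (2462.08), so its value is uncertain. The catalytic subunit gene Prkaa1 had 0.225 in the KO and 2.06 in WT. Among kinases that act on the TSC complex or just above it, 1 of 11 rose and 1 fell (median -0.035). Ikbkb had 32.9 in the KO and 14.3 in WT, Rps6ka3 had 0.537 in the KO and 3.11 in WT, and Mapkapk2, with 12.1 in the KO and 22.1 in WT, did neither.

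Transcription factors known to drive sestrins or Ddit4 moved both ways, with 2 of 10 risen and 4 fallen (median 0.022). Foxo1 had an FPKM of 41.7 in the KO and 6.73 in WT. Ddit3, the stress factor CHOP, had 202 in the KO and 45.4 in WT, at a locus shared with Mars. Foxo4 had 0.114 in the KO and 6.17 in WT, and Foxo3 was at 0 reads in the KO and 23 in WT, below the limit. Trp53, which encodes p53, had 130 in the KO and 268 in WT and fell with a log2 ratio of -1.03, close to the rule. Atf4 had 147 in the KO and 153 in WT.

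Other targets of the same factors were set beside the sestrins. Of 17 measured p53 targets 1 rose and 4 fell (median 0.20). The largest changes were falls: Ei24 (1.83 in the KO and 20.6 in WT), the apoptosis gene Perp (0 in the KO and 6.17 in WT) and Phlda3, an inhibitor of Akt (3.37 in the KO and 16.9 in WT). The riser was Rrm2b, with 5.26 in the KO and 0.750 in WT. Most of the p53 targets that did not pass the rule were higher in the KO. Of 7 measured ATF4 targets 1 rose and 1 fell (median -0.15). Phgdh, the first enzyme of serine synthesis, had 32.0 in the KO and 316 in WT, Atf5 (at a locus shared with 4 other genes) had 7.97 in the KO and 0.491 in WT, and Psat1, at 41.4 in the KO and 70.4 in WT, did neither. Of 13 measured FOXO targets 7 rose and 3 fell (median 1.38). S1pr1, the receptor for thymic exit, had 44.9 in the KO and 3.48 in WT, and Klf2, a factor of resting T cells, 198 in the KO and 32.2 in WT. The 3 that fell were Il7r, Bcl2l11 and Gabarapl1. In the KO and WT, Il7r had 34.9 and 77.2, Bcl2l11 0.126 and 3.02, and Gabarapl1 0.543 and 4.05. Without the 5 FOXO targets that are also markers of naive T cells, 3 of 8 rose and 2 fell (median 0.20).

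**Figure D4:**
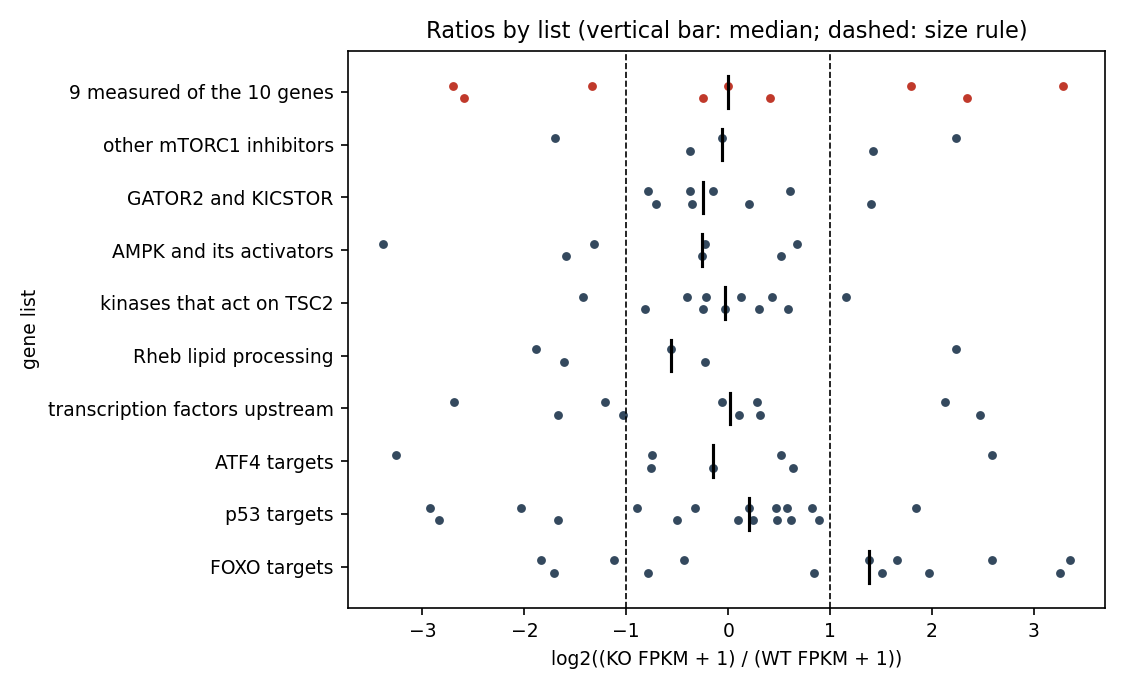
Log2 ratio of KO over WT (FPKM + 1) for each measured gene of the 10 (red) and of 9 pathway lists (dark), with the median of each list as a vertical bar and the size rule of 1 as dashed lines. Only the FOXO target list had its median past 1.

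Markers of other cells differed in the same libraries. Of 8 naive T cell markers 6 rose and 1 fell, with a summed FPKM of 1599 in the KO and 398 in WT and none at 0. Of 6 measured myeloid and dendritic markers 4 rose and 2 fell, with summed levels of 3044 in the KO and 491 in WT; Emr1 and Flt3 were at 0 in both libraries. Apoe supplied most of the KO sum, and without it the sums were 367 in the KO and 245 in WT. The neutrophil genes S100a8 (0 in the KO and 86.4 in WT) and S100a9 (0.908 in the KO and 95.6 in WT) were the markers that fell. Of 4 measured erythroid markers 3 rose (sums 642 in the KO and 97.7 in WT), and of 4 measured stromal markers 3 rose (sums 83.8 in the KO and 28.2 in WT, Krt8 at 0 in both). The epithelial markers of that list went both ways. Epcam and Krt5 were at 0 reads in the KO, against 60 and 9 reads in WT. Krt18 rose, with 16.6 in the KO, on 177 reads, and 0.365 in WT, on 9 reads. Of 2 measured B cell markers 1 rose, with sums of 93.5 in the KO and 32.1 in WT; Ms4a1 was at 0 in both. Double-positive thymocyte markers had 4 of 8 fallen and none risen, with sums of 479 in the KO and 390 in WT. Cd8b1 supplied most of both sums (367 in the KO and 237 in WT). The 9 iNKT and T lineage markers had 4 fallen and none risen, with sums of 3093 in the KO and 3018 in WT. Cd3d (1110 in the KO and 951 in WT) and Cd3g (1295 in the KO and 949 in WT) supplied most of both. Those that fell were Zbtb16, Gata3, Il4 and Icos. In the KO and WT, Zbtb16 had 41.9 and 114, Gata3 24.4 and 56.9, Il4 150 and 316, and Icos 62.0 and 247. The part of these cells in the values of the sestrin, GATOR1 and TSC genes was not tested.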

How the data were processed

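The TruSeq RNA kit was used on RNA of sorted stage 1 iNKT cells, per the labels. The submitters' processing notes name TopHat2 2.0.9 and Cufflinks 2.1.1 with the mm10 build; what each did, the annotation and any use of strand are not stated in the sources used here. The authors deposited an FPKM per gene, per the file headers. Beside it stands a column that the headers call a count, but the deposited values behave as a scaled signal. They are mostly whole multiples of 1.70 in the KO and 0.799 in WT, and division by those steps gave the reads per gene. Among genes with reads, 98.7% came out whole in the KO and 98.3% in WT (tolerance 0.01 of a read, or the files' rounding for large values). Fractions remained, and with 1 library per genotype no count model was fitted.

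Ratios were taken as log2 of (KO FPKM + 1) over (WT FPKM + 1), for genes at a mean FPKM of at least 1. Intervals are at 95%, and a floor of 3 reads per library stands for 0. Such intervals and floors cover counting error only. The members and lists were chosen with earlier results of these data known. Beside the 10 genes and Uhrf1, the text names up to 3 genes with the largest ratio in each pathway list. It also names Tbc1d7, Trp53, Foxo1, Foxo3 and Atf4. Deptor, Rrm2b, Bcl2l11, Gabarapl1, Fntb, Rce1, Pkd1, Cyb561d2, Nthl1, Mpg and the marker genes were named after their values were seen. The other list genes enter the counts, medians and sums without being named, and some that the rule names are not reported here. Gene coordinates are 1-based, from RefSeq GRCm38.p6, and exons from GENCODE M21. The size rule was tested on simulated data, which cannot show the spread between libraries of 1 genotype. In all 11 alternatives were run. The tools were numpy 2.4.6, scipy 1.17.1, pandas 2.3.3, statsmodels 0.14.6 and matplotlib 3.10.9 under Python 3.11.15.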

Additional observations from a re-analysis of the deposited data

How the results depend on the processing

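Over the 11 alternatives 2 or 3 of the brake genes rose and 2 or 3 fell. Sesn1, Sesn3, Ddit4, Rheb, Nprl2 and Nprl3 kept their side of the size rule of 1 under each of the 9 settings that left this rule in place. Sesn2 and Depdc5 did so in the 8 settings that kept them; a mean FPKM of at least 5 left both out. Tsc2 was short of the rule with a pseudocount of 5, at -0.92. A size rule of 2 ended the calls of Nprl2 and Tsc2. The log2 ratio of Rheb ran from -0.15 to 0.12, so its sign depended on the setting. The median log2 ratio of these genes was -0.12 with no filter on low values, which adds Tsc1, -0.13 at the same upper quartile, -0.15 with the lowess trend removed, and 0.12 on scaled counts in place of FPKM. The upper quartile scaling moved the median of all genes to -0.13 as well. Of the 83 measured pathway list genes 35 were past the rule in either direction, beside 44.9% of all measured genes. The count was 37 with a pseudocount of 0.1 and 24 with a pseudocount of 5. It was 21 at a mean FPKM of at least 5, 55 at a size rule of 0.5 and 14 at a size rule of 2. Depth limits Depdc5 (19 reads), Nprl3 (37 reads) and Tsc1 (60 reads) in the KO. No paired analysis was possible because each genotype had 1 library.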

Other observations

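Genes for the lipid anchor of Rheb moved both ways. Of 5 measured, 1 rose and 2 fell (median log2 ratio -0.56), beside 21.3% risen and 23.6% fallen over all measured genes. Fntb and Rce1 did neither. Icmt, which methylates the farnesylated end of such proteins, had an FPKM of 11.0 in the KO and 1.56 in WT, at a locus shared with Rnf207. Fnta, the shared subunit of farnesyltransferase, had 4.68 in the KO and 20.1 in WT, and Pde6d, a carrier of farnesylated proteins, had 9.77 in the KO and 31.8 in WT.

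Neighbours of the brake genes were named after their values were seen. Nthl1 rose where Tsc2 fell, and Cyb561d2 and Mpg did not pass the size rule. Nthl1, a DNA repair glycosylase with an exon in the 250 bases before the start of Tsc2, had 28.7 in the KO, on 228 reads, and 0.657 in WT, on 12 reads, while Tsc2 was lower in the KO. Cyb561d2, with an exon in the same place before Nprl2, had 27.7 in the KO and 21.2 in WT. Mpg, whose exons overlap those of Nprl3, had 13.8 in the KO and 15.2 in WT. Introns of Nprl3 are known to hold enhancers of the alpha globin genes, and the alpha globin gene Hba-a1 had 428 in the KO and 60.7 in WT. The beta globin gene Hbb-bs, on chromosome 7, rose as well, with 175 in the KO and 34.1 in WT. Globin genes are close copies, so these values are uncertain. A link between Nprl3 and the globin levels was not tested.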
